A study of Mus musculus with 6 samples.

Results

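The regions described here carried a 5-methylcytosine (5mC) peak in mouse fibroblasts and had no peak of either 5mC or 5-hydroxymethylcytosine (5hmC) in the induced pluripotent stem (iPS) cells of the same reprogramming system. They were chosen by the presence and absence of peaks in 4 of the 6 deposited lists, as the fibroblast 5mC peaks that overlapped, by 1 bp or more, no fibroblast 5hmC peak, no iPS 5hmC peak and no iPS 5mC peak, and are called iPS-unmarked peaks below. There were 23407 of them among the 104011 fibroblast 5mC peaks, or 22.5%, and among the 92420 fibroblast 5mC peaks without fibroblast 5hmC they made up 25.3%. They covered 20.4 Mb of the 110.8 Mb under all fibroblast 5mC peaks. The word unmarked means that no peak was listed. It does not mean that a mark was absent from the DNA.

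Both marks were profiled by antibody capture of sonicated genomic DNA and sequencing, in cells of the strain OG2-GFP/Rosa26-M2rtTA, with a 5hmC polyclonal antibody from Active Motif and a 5mC monoclonal antibody from Calbiochem. The fibroblasts came from mice made from TSKM iPS cells and were taken at passage 4. The day-3 cells were such fibroblasts that at passage 4 were moved to embryonic stem cell medium with doxycycline for 3 days. The iPS cells were 1 line induced with Tet1, Sox2, Klf4 and c-Myc, taken at passage 10 to 15, grown on mitomycin C-treated feeder fibroblasts and with LIF, and freed of feeders by a short plating step after which the share of feeder cells left is not stated. Each of the 3 stages had 1 library per mark, so a stage has no replicate error, no test between stages was possible and no p-values are given. The fibroblast lists held 42301 5hmC and 104011 5mC peaks, the day-3 lists 116087 and 165869, and the iPS lists 174079 and 61171, and the depth of each library is unknown. The labelled cell types could not be checked against marker genes, since the peaks were not assigned to genes.

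5mC is written on cytosines by DNA methyltransferases, and enzymes of the Tet family, including Tet1, oxidise it to 5hmC and further. A methylated region can lose the mark by oxidation followed by repair, or when the mark is not copied after DNA replication. Reprogramming of fibroblasts to pluripotency is known to remodel methylation at many sites. Antibody capture reads stretches far longer than a CpG and favours DNA with many modified cytosines, so a weakly methylated region can fall below the peak caller's limit without having lost its mark.

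The iPS-unmarked peaks were the narrower and lower-scoring part of the fibroblast 5mC list. Their median width was 840 bp (quartiles 734 and 947 bp). The median was 930 bp for the 34613 peaks that had 5hmC without 5mC in iPS cells, 1095 bp for the 25475 that had both marks and 911 bp for the 8925 that had 5mC without 5hmC. Their median score in the fibroblast 5mC list was 68.66 (quartiles 57.25 and 89.61), against 87.49, 141.5 and 86.03 in these 3 other sets, taken in the same order. Scores are those the authors' peak caller gave each peak, and the lowest score in the fibroblast 5mC list was 50. A score under 60, close to that limit, was held by 32.1% of the iPS-unmarked peaks and by 13.4% of the other peaks without fibroblast 5hmC. A single iPS-unmarked peak reached a width of 3 kb, against 622 of the 69013 others. Since the list and the absence of overlaps chose these regions, and a wide peak meets another peak more readily, the widths and scores are a description and carry no test.

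The edge of the rule was not sharp. An excluded peak lay within 100 bp of 872 iPS-unmarked peaks, or 3.73%, and within 1 kb of 30.5%. The nearest iPS 5hmC peak was a median of 2874 bp away, the nearest iPS 5mC peak 8760 bp and the nearest fibroblast 5hmC peak 13298 bp. Of the 872 peaks just inside the rule, 81.2% lay on a day-3 5mC peak and 28.4% on a day-3 5hmC peak, with a median score of 69.3. Just outside it were 622 fibroblast 5mC peaks that overlapped excluded peaks by less than 100 bp in all, with 80.5%, 27.97% and a median score of 70.9.

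Neither day-3 list was used to choose the regions, and at day 3 most of them were still listed as methylated. A day-3 5mC peak lay on 18419 of the 23407, or 78.7% (95% Wilson interval 78.2 to 79.2), where 89.7% of all fibroblast 5mC peaks and 89.5% of those without fibroblast 5hmC did so. A day-3 5hmC peak lay on 4568 of them, or 19.5% (19.0 to 20.03), where 30.9% of all fibroblast 5mC peaks and 27.7% of those without fibroblast 5hmC did so. Both shares were thus below the background. In 4 states, 62.3% of the iPS-unmarked peaks had 5mC without 5hmC at day 3 (background over all fibroblast 5mC peaks 61.2%), 16.3% had both marks (28.5%), 3.17% had 5hmC without 5mC (2.37%) and 18.1% had neither (7.97%). This background includes peaks with fibroblast 5hmC, which the rule left out. Among the 69013 other peaks without fibroblast 5hmC, the shares were 64.6%, 28.5%, 1.99% and 4.83% in the same order. The intervals cover counting error only, and neighbouring peaks are not independent.

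**Figure D1:**
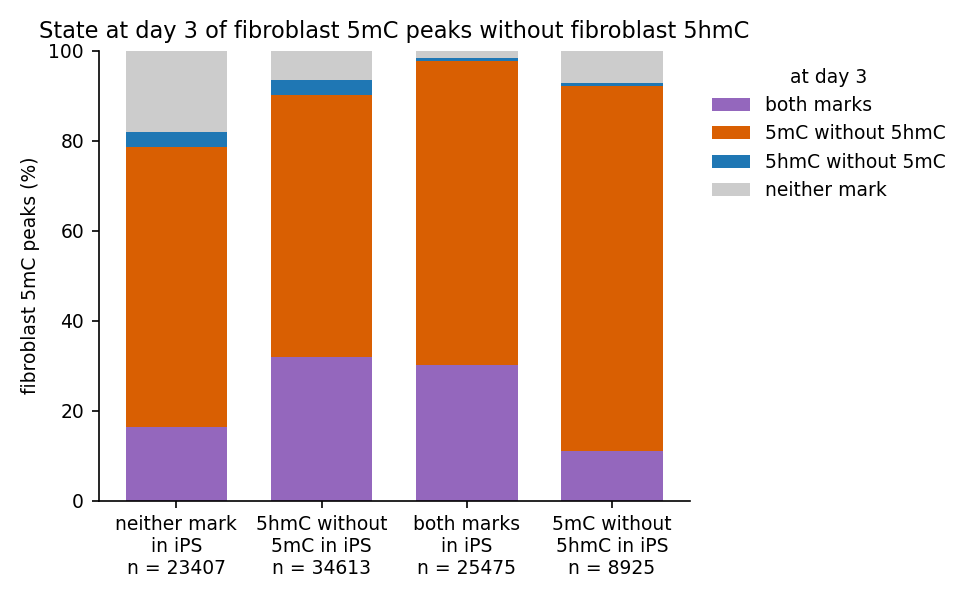
Stacked bars give the share of fibroblast 5mC peaks without fibroblast 5hmC (vertical axis, percent) that had both marks, 5mC without 5hmC, 5hmC without 5mC or neither mark at day 3, for each of the 4 states in iPS cells (horizontal axis, with the number of peaks). The grey part, neither mark at day 3, is 18.1% in the bar of the iPS-unmarked peaks and 6.53%, 1.72% and 7.13% in the other bars.

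Set against each other state in iPS cells, the iPS-unmarked peaks had the lowest share with day-3 5mC and the second lowest with day-3 5hmC. Day-3 5mC was listed on 78.7% of them, on 90.2% of the peaks with 5hmC without 5mC in iPS cells, on 97.7% of those with both marks and on 92.1% of those with 5mC without 5hmC. Day-3 5hmC was listed on 19.5% of them, and on 35.2%, 30.8% and 11.9% of the same other sets. Against all 69013 other peaks together the difference was -14.5 percentage points for 5mC (-15.0 to -13.9) and -11.0 points for 5hmC (-11.6 to -10.4). Against the peaks with 5mC without 5hmC in iPS cells it was 7.62 points for 5hmC (6.76 to 8.45), so that the iPS-unmarked peaks had day-3 5hmC more often than the peaks whose 5mC stayed without 5hmC. The shares depended on the score limits. With a score of at least 100 in the day-3 lists alone, 46.7% of the iPS-unmarked peaks had 5mC and 48.1% had neither mark, and the 5hmC difference to all others was -7.63 points. It was -1.65 points when each of the 6 lists was cut to the same number of best-scoring peaks, which also changed the regions, to 11766, and the peaks they were set against, to 25009.

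The shares depended on how strongly a region was captured in fibroblasts. When all fibroblast 5mC peaks without fibroblast 5hmC were ranked by score into 5 equal groups, the iPS-unmarked peaks made up 44.6% of the lowest-scoring group and 5.52% of the highest-scoring one. In the lowest-scoring group, day-3 5mC was on 64.9% of them (63.8 to 65.9), and on 75.6%, 87.3% and 81.0% of the peaks with 5hmC without 5mC, both marks and 5mC without 5hmC in iPS cells. In the highest-scoring group it was on 1018 of 1021, or 99.7%, and on 99.9% or more of the peaks in each other set. The lower 5mC share of the iPS-unmarked peaks was seen at low and middle scores, while in the highest-scoring group all sets were near 100% and the share could hardly differ.

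5hmC behaved differently along the same ranking. In the lowest-scoring group, 15.6% of the iPS-unmarked peaks (14.8 to 16.4) had day-3 5hmC, against 30.3% of the peaks that had 5hmC without 5mC in iPS cells (29.2 to 31.4). In the highest-scoring group these shares were 44.6% (41.5 to 47.6) and 45.2% (43.9 to 46.5), with overlapping intervals. Of the peaks with both marks in iPS cells, 23.3% had day-3 5hmC in the lowest-scoring and 37.3% in the highest-scoring group, so that the iPS-unmarked peaks were below them in the lowest-scoring group and 7.26 points above them (4.10 to 10.5) in the highest-scoring one. The peaks with 5mC without 5hmC in iPS cells climbed less, with 11.1% in the lowest-scoring and 13.8% in the highest-scoring group. Among the best-scoring fibroblast 5mC peaks, the difference in day-3 5hmC between those that ended without either mark and those that ended with 5hmC without 5mC was thus -0.641 points (-3.94 to 2.69). When the other peaks were reweighted to the score of the iPS-unmarked peaks over 20 equal groups, day-3 5mC was on 78.7% of the iPS-unmarked peaks and 87.3% of the others, and day-3 5hmC on 19.5% and 27.5%.

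**Figure D2:**
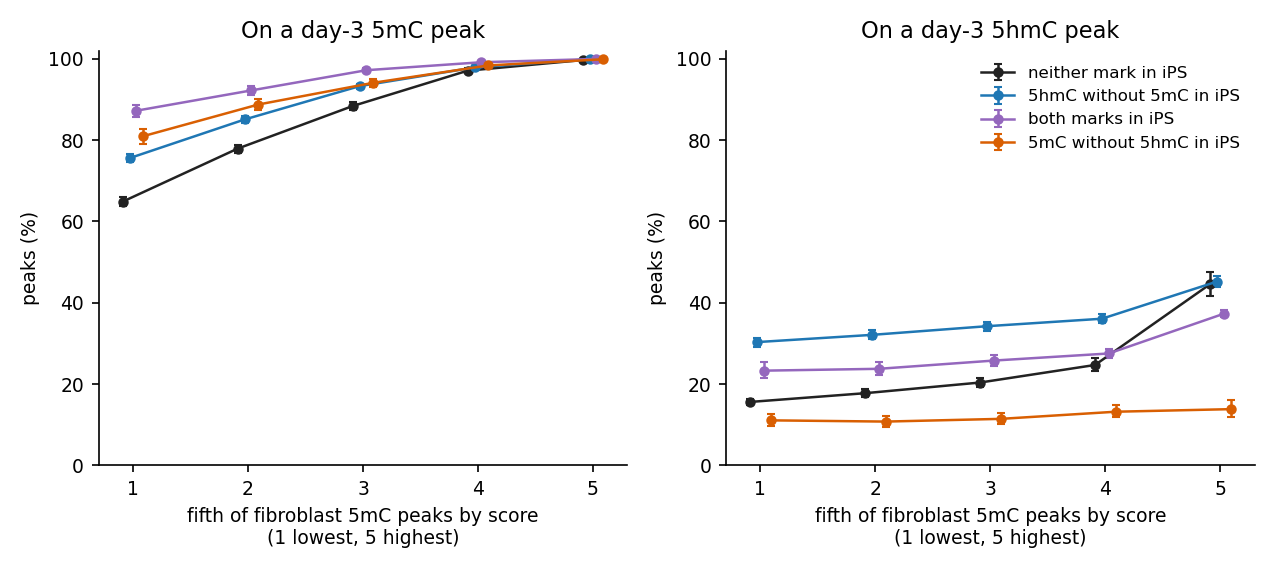
Points give the share of peaks (vertical axis, percent) on a day-3 5mC peak (left) or a day-3 5hmC peak (right) in 5 equal groups of fibroblast 5mC peaks without fibroblast 5hmC ranked by score (horizontal axis), with 1 line per state in iPS cells and bars for 95% Wilson intervals. The black line of the iPS-unmarked peaks climbs to 99.7% for 5mC, and for 5hmC from 15.6% in the lowest-scoring to 44.6% in the highest-scoring group, where it meets the line of the peaks with 5hmC without 5mC.

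Day-3 5hmC was listed more often where 5mC was listed too. Of the 18419 iPS-unmarked peaks with day-3 5mC, 20.8% also had day-3 5hmC (20.2 to 21.4), and of the 4988 without day-3 5mC, 14.9% had it (13.9 to 15.9). Among the other peaks together the corresponding shares were 30.6% and 29.2%. In the 5 equal groups by fibroblast score, from lowest to highest, 16.7%, 18.3%, 20.5%, 24.9% and 44.7% of the iPS-unmarked peaks with day-3 5mC had 5hmC, against 13.5%, 15.7%, 19.03%, 18.75% and 0% of those without it. The groups without day-3 5mC thin out to 80 peaks and then 3 in the highest-scoring groups, and the intervals of both shares overlap in the 4 groups above the lowest.

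Where a day-3 peak was present, it usually lay squarely on the fibroblast peak. Day-3 5mC covered a median of 95.1% of an iPS-unmarked peak (quartiles 85.7% and 100%), and the centres of both peaks were a median of 61 bp apart. Day-3 5hmC covered a median of 90.3% (quartiles 67.98% and 100%), with the centres a median of 205.5 bp apart. For the other peaks the median share covered by day-3 5hmC was 80.5%. The share is taken of the fibroblast peak, whose median width was 840 bp for all iPS-unmarked and 971 bp for all other peaks. The day-3 5hmC peaks on them had similar median widths, 1060 and 1077 bp. The part of width in the covered shares was not tested. In the day-3 5mC list, the peaks on iPS-unmarked regions had a median score of 113.95, at the median 53.1st percentile of that list, against 194.2 on the other peaks. In the day-3 5hmC list, they had a median score of 168.6, at the median 64.8th percentile, against 165.8 on the others. By state in iPS cells, the others had day-3 5hmC medians of 176.2 (5hmC without 5mC), 157.2 (both marks) and 127.4 (5mC without 5hmC). Against the other peaks together, the regions thus stood lower in the day-3 5mC list and at much the same height in the day-3 5hmC list. Their median fibroblast 5mC score was also lower, at 68.66 against 101.4, and its part in this was not tested.

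The contrast with the other peaks together also appeared when the same overlaps were counted from the day-3 lists ranked by their own score. iPS-unmarked regions lay under 7.56% of the lowest-scoring and 8.05% of the highest-scoring of 5 equal groups of day-3 5mC peaks, with up to 15.0% in between, whereas the other peaks without fibroblast 5hmC lay under 10.3% of the lowest-scoring and 76.8% of the highest-scoring group. For day-3 5hmC peaks the share on iPS-unmarked regions was 2.80% in the lowest-scoring and 6.47% in the highest-scoring group, and the share on the others was 13.7% and 28.3%. For every 100 day-3 5mC peaks on other regions there were 73.4 on iPS-unmarked regions in the lowest-scoring group and 10.5 in the highest-scoring one. For day-3 5hmC these numbers were 20.5 and 22.9. The sets themselves held 23407 iPS-unmarked and 69013 other peaks. Their median fibroblast 5mC scores were 68.66 and 101.4, and the part of score in these numbers was not tested.

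Around the centres of the iPS-unmarked peaks, day-3 5mC peaks covered 77.9% of the centre positions, 11.3% of positions 1 kb away and 14.6% of positions 5 kb away. Day-3 5hmC peaks covered 16.6% of the centres, 8.63% of positions 1 kb away and 9.16% of positions 5 kb away, so that the centre value was 1.82 times that at 5 kb. The centre value was 2.12 times the value at 5 kb for peaks with 5hmC without 5mC in iPS cells and 1.57 times for those with both marks. For the peaks with 5mC without 5hmC it was 1.00 times, since 8.85% of positions were covered at the centre and 8.85% at 5 kb. At 1 kb from these peaks the value was lower, at 6.61%, so the centre stood above its near surroundings. These peaks, like the iPS-unmarked ones, were chosen to overlap no fibroblast or iPS 5hmC peak. The surroundings of the iPS-unmarked peaks were also more thinly covered by fibroblast 5mC. Fibroblast 5mC peaks covered 10.01% of positions 5 kb from them, against 14.1%, 18.4% and 12.2% around peaks with 5hmC without 5mC, both marks and 5mC without 5hmC in iPS cells.

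**Figure D3:**
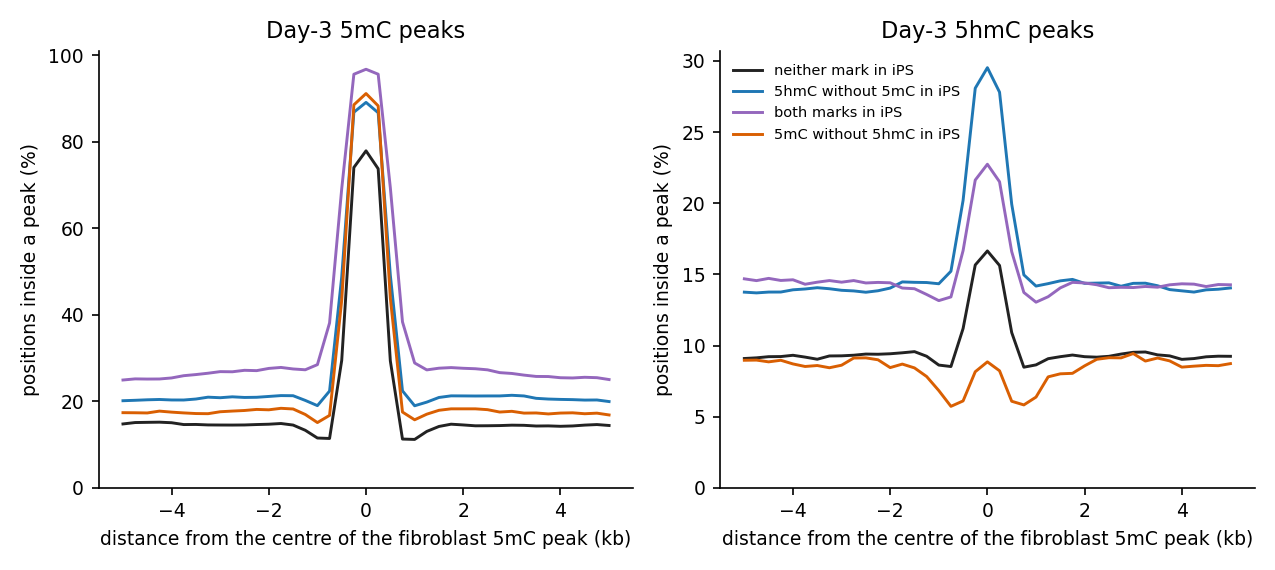
Lines give the share of positions inside a day-3 5mC peak (left) or a day-3 5hmC peak (right; vertical axes in percent, with different ranges) by distance from the centre of the fibroblast 5mC peak in kb (horizontal axis), with 1 line per state in iPS cells. The black line of the iPS-unmarked peaks reaches 77.9% for 5mC and 16.6% for 5hmC at the centre. For 5hmC, the line of the peaks with 5mC without 5hmC in iPS cells is at 8.85% at the centre, 6.61% at 1 kb and 8.85% at 5 kb.

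Day-3 5hmC on the iPS-unmarked peaks was more frequent close to iPS 5hmC. It was on 25.9% (24.8 to 27.04) of the 5860 peaks with an iPS 5hmC peak within 1 kb, on 19.9% (19.2 to 20.6) of the 12326 with one at 1 to 10 kb, and on 11.4% (10.6 to 12.3) of the 5221 with none within 10 kb. Day-3 5mC varied less, with 80.9%, 78.9% and 75.7% in the same order. The median fibroblast score also declined along this order, at 70.23, 69.29 and 65.73, and its part in the 5hmC shares was not tested. The rule itself used the iPS 5hmC list, and 48.3% of all day-3 5hmC peaks overlapped an iPS 5hmC peak. Other fibroblast 5mC peaks were not grouped by this distance, so whether the pattern is particular to the iPS-unmarked peaks was not tested.

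Counted from the day-3 lists, 18521 day-3 5mC peaks and 4593 day-3 5hmC peaks lay on iPS-unmarked regions. Of the 5hmC peaks 88.1% overlapped neither an iPS 5hmC nor an iPS 5mC peak, and of the 5mC peaks 96.0% overlapped neither, where 49.8% of all day-3 5hmC and 34.8% of all day-3 5mC peaks did so. A low overlap is built into the choice of the regions, so these shares are a description. The 522 day-3 5hmC peaks (11.4%) that did meet an iPS 5hmC peak met it beyond the edge of the iPS-unmarked region. The remaining 4071 met no iPS 5hmC peak along their length, as did 51.7% of all day-3 5hmC peaks.

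The fibroblast score differed between the day-3 states. The 3827 iPS-unmarked peaks with both marks at day 3 had a median score of 79.43, the 14592 with 5mC without 5hmC 71.28, the 741 with 5hmC without 5mC 60.6 and the 4247 with neither 58.54. A score under 60 was held by 21.01%, 27.6%, 48.04% and 54.9% of these. The regions without day-3 5mC thus lay closer to the caller's limit in fibroblasts than those with it. Of the 4988 regions without day-3 5mC, 23.6% had a day-3 5mC peak within 1 kb, and the median distance was 3026.5 bp.

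**Figure D4:**
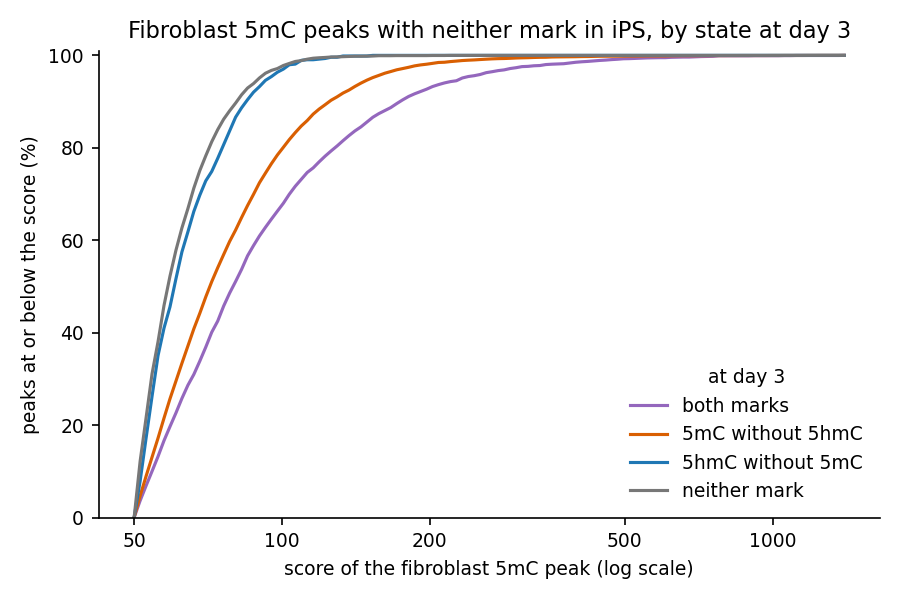
Lines give the share of iPS-unmarked peaks (vertical axis, percent) with a fibroblast 5mC score at or below the value on the horizontal axis (log scale), with 1 line per state at day 3. The lines of the peaks without day-3 5mC lie to the left, with median scores of 58.54 (neither mark) and 60.6 (5hmC without 5mC), and the line of those with both marks lies to the right, with a median of 79.43.

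The 5 best-scoring iPS-unmarked peaks each carried 5mC at day 3 and differed in 5hmC. The best one, on chromosome 6 from 48387842 to 48389762, scored 1387.51 in the fibroblast 5mC list. At day 3 a 5mC peak with a score of 3183.58 covered 96.4% of it, and the nearest day-3 5hmC peak was 3857 bp away. The next, on chromosome 12 from 112214337 to 112216305, scored 1372 in fibroblasts and was covered whole at day 3 by a 5mC peak with a score of 3100 and by a 5hmC peak with a score of 517.91. This region thus carried both marks at day 3, and in iPS cells the nearest 5hmC peak was 1188 bp and the nearest 5mC peak 7163 bp away. A score of exactly 3100 recurred in each list, at 33 to 258 peaks, and no source used here says what it stands for.

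The third, on chromosome 10 from 59648073 to 59650043, scored 1220.84 in fibroblasts, with day-3 5mC at 2410.75 over 88.5% of it and a day-3 5hmC peak 160 bp away. The fourth, on chromosome 5 from 136750087 to 136751733, scored 1175.43, with 2 day-3 5mC peaks over 85.2% of it and no day-3 5hmC peak within 4608 bp. This one rests on the exact edge of the rule, since an iPS 5mC peak abutted it at a distance of 0 bp and an iPS 5hmC peak lay 104 bp away. The fifth, on chromosome 6 from 47974153 to 47976177, scored 1111.23, with day-3 5mC at 2283.14 over 97.8% of it and a weak day-3 5hmC peak, at 85.4, over 20.5%. It lay 2603 bp from the nearest iPS 5hmC peak and 52239 bp from the nearest iPS 5mC peak.

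The widest regions gave a mixed picture. The widest, of 4517 bp on chromosome 7 from 69521819 to 69526335, scored 459.33 in fibroblasts and had 2 day-3 5mC peaks over 85.9% of it and a day-3 5hmC peak over 16.1%. It was remote from iPS peaks, with the nearest 5hmC peak at 27477 bp and the nearest 5mC peak at 1200001 bp. The second, of 2955 bp on chromosome 11 from 104165516 to 104168470, had day-3 5mC over 86.8% and a strong day-3 5hmC peak, with a score of 2355.07, over 93.98%. A fibroblast 5hmC peak lay 64 bp and an iPS 5hmC peak 554 bp from its edge. The third, of 2915 bp on chromosome 5 from 117404963 to 117407877, had day-3 5mC over 58.01% and no day-3 5hmC peak.

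Regions without day-3 5mC were weaker. Among those with 5hmC without 5mC at day 3, the best fibroblast scores were 150.15, on chromosome 8 from 122261587 to 122262702, and 132.61, on chromosome 17 from 84708899 to 84710187. The day-3 5hmC peaks there scored 200.96 over 83.96% of the region on chromosome 8 and 63.23 over 40.6% of the region on chromosome 17. Among those with neither mark at day 3, the best fibroblast scores were 216.54, on chromosome 11 from 82209460 to 82211714, and 202.64, on chromosome 1 from 87914429 to 87915794. A day-3 5mC peak lay 216 bp from the region on chromosome 11 and 1046 bp from that on chromosome 1, so that both had day-3 5mC close by.

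The iPS-unmarked peaks under the 3 best-scoring day-3 5hmC peaks had low fibroblast scores. The day-3 5hmC score was 3198.66 on chromosome 3 from 89699596 to 89700319, 3105.65 on chromosome 13 from 30291540 to 30292511 and 3104.04 on chromosome 6 from 88955469 to 88956314, and each region was covered whole. The fibroblast 5mC scores of these regions were 61.88, 70.45 and 55.92. Day-3 5mC was listed on the region on chromosome 13 alone of these, with a score of 79.37. An iPS 5hmC peak lay 76 bp, 1102 bp and 348 bp from the regions on chromosomes 3, 13 and 6. In all, 401 iPS-unmarked peaks lay on a day-3 5hmC peak with a score of at least 1000, or 8.78% of those with day-3 5hmC, against 9.13% of the other peaks with day-3 5hmC. Their median fibroblast 5mC score was 83.93, above the 68.66 of all iPS-unmarked peaks, and 346 of them, or 86.3%, had day-3 5mC, so the 3 named regions do not stand for the 401. The median fibroblast score was 122.9 in the other peaks under such day-3 5hmC.

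Along the genome, the iPS-unmarked peaks were spread over the autosomes in similar proportions and were more frequent among the few peaks of chromosome X. On chromosome X they were 84 of the 154 fibroblast 5mC peaks without fibroblast 5hmC, or 54.5% (46.7 to 62.2). Over all autosomes the share was 25.3%, from 22.2% on chromosome 4 to 29.2% on chromosome 3. In each of the 5 groups by score the share on X was above that of the autosomes, with 60.5% (45.6 to 73.6) and 44.5% in the lowest-scoring group and 30.8% (16.5 to 49.99) and 5.49% in the highest-scoring one. Day-3 5mC was on 71 of the 84 X peaks and day-3 5hmC on 12, or 84.5% and 14.3%. On the autosomes these shares of the iPS-unmarked peaks were 78.7% and 19.5%. Chromosome Y held 2 iPS-unmarked peaks.

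**Figure D5:**
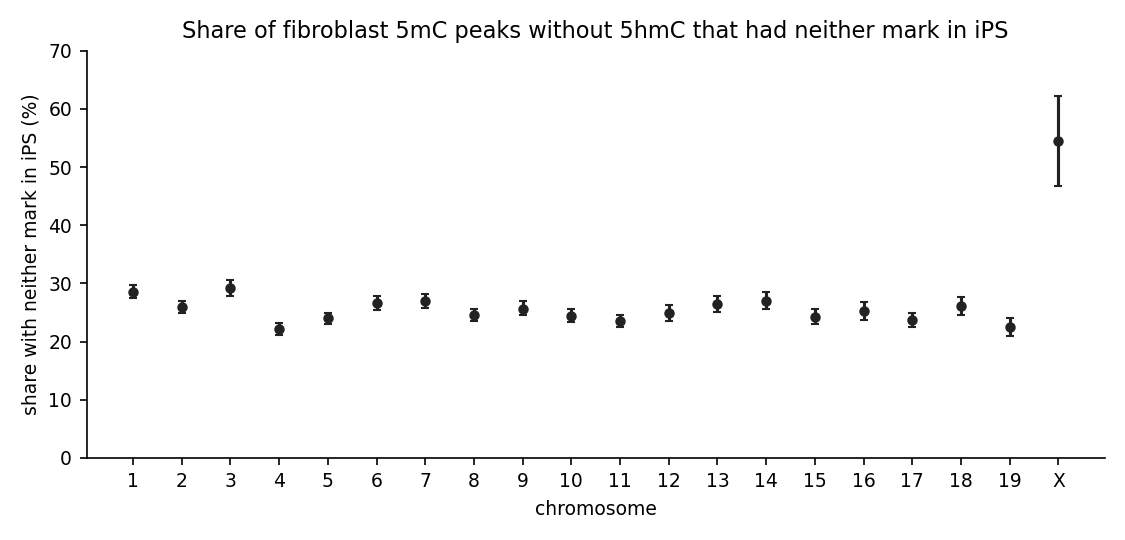
Points give, for each chromosome except Y (horizontal axis), the share of fibroblast 5mC peaks without fibroblast 5hmC that had neither mark in iPS cells (vertical axis, percent), with bars for 95% Wilson intervals. The autosomes lie between 22.2% and 29.2%, and chromosome X, with 154 peaks, lies at 54.5%.

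iPS-unmarked peaks tended to follow one another. The next fibroblast 5mC peak was also iPS-unmarked for 31.2% of them, against 19.98% of all other fibroblast 5mC peaks. Where the next peak was within 2 kb, these shares were 27.3% and 12.97%. Runs without another fibroblast 5mC peak in between were mostly short, as 49.3% of the iPS-unmarked peaks stood alone and 25.6% formed pairs.

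The longest runs held 14 peaks each and looked unlike one another at day 3. The run on chromosome 18 from 37425110 to 37679933 spanned 254.8 kb. All 14 of its peaks had day-3 5mC and 0 had day-3 5hmC, and no 5hmC peak of any stage lay in the span. The fibroblast list had 14 5mC peaks there covering 14.5 kb, the day-3 list 22 covering 23.3 kb and the iPS list 1 covering 0.598 kb. The fibroblast scores there had a median of 101.4, above that of the iPS-unmarked peaks as a whole.

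The run on chromosome 2 from 134415853 to 135294529 spanned 878.7 kb, with 10 of its 14 peaks on day-3 5mC and 3 on day-3 5hmC. In the span the fibroblast lists had 8 5hmC and 14 5mC peaks, the day-3 lists 43 and 23, and the iPS lists 2 and 0. The run on chromosome 12 from 35090034 to 35829624 spanned 739.6 kb, with 5 of its 14 peaks on day-3 5mC and 2 on day-3 5hmC. The fibroblast lists had 8 5hmC and 14 5mC peaks there, the day-3 lists 31 and 17, and the iPS lists 9 and 1. Both spans had their highest number of 5hmC peaks at day 3, whereas the span on chromosome 18 held 5mC without 5hmC.

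Counted over windows of 100 kb, 11823 of the 15973 windows with a fibroblast 5mC peak held at least 1 iPS-unmarked peak, and 603 held 5 or more. The densest was on chromosome 8 from 117300001 to 117400000, where 19 of 28 fibroblast 5mC peaks were iPS-unmarked, with a median score of 108.33. Of these 19 peaks 17 had day-3 5mC and 2 had day-3 5hmC. Its neighbour, from 117200001 to 117300000, held 10 of 21, of which 8 had day-3 5mC and 1 had day-3 5hmC, so the cluster spanned both windows. In this neighbouring window the fibroblast 5mC list covered 23.2 kb, that of day 3 26.3 kb and that of the iPS cells 5.31 kb. The other dense windows held 11 of 24 on chromosome 19 from 48000001 to 48100000, 10 of 29 on chromosome 8 from 122200001 to 122300000 and 10 of 22 on chromosome 8 from 125300001 to 125400000. Day-3 5mC was on 7 of 11, 9 of 10 and 8 of 10 of the iPS-unmarked peaks there, and day-3 5hmC was on 0, 3 and 2. Of the 5 windows with exactly 10 iPS-unmarked peaks, the 3 on chromosome 8 are given here, since ties went to the lower chromosome.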

How the data were processed

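Per the submitters' processing notes, CASAVA 1.8, Bowtie 0.12.7, MACS 1.4.1 and the build mm9 were used. Each deposited file is 1 peak list of 1 library, with a score per peak as the authors' peak caller wrote it. The files do not define the score, and it was taken to be 10 times the negative log10 of a p-value. Neither the labels nor the files give a control library, caller settings or read depth. Scores depend on depth and were used within a list. Groups came from the titles.

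Peaks overlapped from 1 bp; bedtools 2.31.1 gave 23407 regions, all 23407 shared by peak name. Shares have 95% Wilson intervals, and differences combine them. Ranked groups were of equal size over the 92420 peaks without fibroblast 5hmC. Profiles used steps of 250 bp to 5 kb. The steps ran in Python 3.11.15 with scipy 1.17.1, numpy 2.4.6, matplotlib 3.10.9 and pandas 2.3.3. The overlap counting was tested on 3000 simulated intervals, with 0 errors. Coordinates are on mm9, counted from 1. No mm9 sequence or annotation was used here, so no genes are named.

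The regions were set by the stated rule, and it and the analyses were chosen with earlier results of these data known. Named were the 5 best-scoring and 3 widest regions, the 2 best-scoring of each day-3 state, the 3 under the best day-3 5hmC peaks, the 5 densest windows of 100 kb and the 3 longest runs.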

Additional observations from a re-analysis of the deposited data

How the results depend on the processing

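Of 76 values under 11 alternatives, 22 moved by less than their counting interval, or by less than 1.5 times for the number of regions, and 54 moved more. The differences between the iPS-unmarked and the other peaks stayed negative under each alternative. With autosomes alone, no value moved more. Requiring a score of 100 or more throughout the 6 lists gave 11624 regions, of which 88.1% had day-3 5mC, 18.2% had 5hmC, 1.59% had 5hmC without 5mC and 10.3% had neither, with differences of -7.67 points for 5mC and -8.50 points for 5hmC. With that limit on the day-3 lists alone, 46.7% had 5mC, 13.4% had 5hmC, 8.21% had both, 5.22% had 5hmC without 5mC and 48.1% had neither, with differences of -30.1 and -7.63 points. With the 116087 best-scoring peaks of each day-3 list, 61.3% had 5mC, 13.9% had both, 5.62% had 5hmC without 5mC and 33.1% had neither, with a 5mC difference of -24.1 points. Cutting each of the 6 lists to its 42301 best-scoring peaks gave 11766 regions, of which 59.4% had 5mC, 16.5% had 5hmC, 11.7% had both, 4.84% had 5hmC without 5mC and 35.7% had neither, with differences of -21.9 and -1.65 points. Asking for an overlap of at least 50% of the fibroblast peak, in the rule as well as at day 3, gave 26723 regions. Of these, 17.4% had 5hmC, 14.5% had both and 2.86% had 5hmC without 5mC, with a 5hmC difference of -6.96 points. Asking for the centre of the fibroblast peak inside the other peak, again in the rule as well, gave 26563 regions. Of these, 17.5% had 5hmC, 14.5% had both, 2.91% had 5hmC without 5mC and 18.7% had neither, with a 5hmC difference of -7.30 points. With no excluded peak within 1000 bp there were 16263 regions. Of these, 77.97% had 5mC, 17.6% had 5hmC, 14.6% had both and 19.0% had neither, with differences of -15.2 and -12.9 points. With fibroblast 5mC peaks of a score of at least 100 there were 4318 regions, of which 97.1% had 5mC, 29.1% had 5hmC, 28.6% had both, 0.556% had 5hmC without 5mC and 2.32% had neither, with differences of -2.00 and -4.91 points. After reweighting the other peaks to the score of the iPS-unmarked peaks, chosen after seeing the data, the differences were -8.63 and -7.95 points, and after reweighting to their width, -10.3 and -7.52 points. Stricter day-3 lists leave fewer peaks to overlap by construction. Limits on all 6 lists, the other overlap criteria, the 1000 bp margin and the fibroblast score limit also changed which regions were chosen. With a score of 100 or more in all 6, the day-3 5mC share rose from 78.7% to 88.1%. The cause of this and the other shifts was not tested.

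Without replicates no spread between cultures is known, and without depths the lists of different stages cannot be scaled to each other. The iPS 5mC list was shorter than the fibroblast 5mC list, with 61171 peaks against 104011. Whether the iPS 5mC library was also shallower is unknown. If it was, regions can be iPS-unmarked for that reason, which cannot be told apart from lost 5mC. The rule also asked for no iPS 5hmC peak, and the iPS 5hmC list was the longest of all, with 174079 peaks. No paired analysis was possible because each stage and mark has 1 library, with no replicate numbers.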

Other observations

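Of the 4077 windows of 100 kb with at least 10 fibroblast 5mC peaks, 1 held iPS-unmarked peaks alone. It lay on chromosome 18 from 37600001 to 37700000, with 10 of 10 peaks, which belong to the run of 14 described above. The share was at least 80% in 3 further windows, which were chosen after their values were seen. They were on chromosome 8 from 112800001 to 112900000 with 9 of 10 peaks, on chromosome 4 from 127200001 to 127300000 with 8 of 10, and on chromosome 15 from 91300001 to 91400000 with 8 of 10.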
